A study of Mus musculus with 3 samples.

Results

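RNA of the MHC class II presentation pathway was examined in platelets of 20-week-old male BALB/c mice. Platelets are blood cells without a nucleus that megakaryocytes release. The mice were wild type for Nxf1, the main mRNA export receptor. The genes were chosen by name: Cd74, H2-Aa, H2-Ab1, H2-Eb1, H2-DMa, H2-DMb1 and Ciita, all 7 of which were among the 9822 genes of the deposited count tables. There were 3 libraries in 1 group, replicates 1 to 3, each in a batch of its own per the labels. Sample and batch therefore cannot be told apart, and no conditions can be compared. Whether each library stands for its own mouse is not stated, so the errors below describe only how these libraries differ, which may be technical variation. The libraries held 25189231 to 26974129 counts, and markers of platelets and megakaryocytes were high. The 14 listed genes had a summed level of 41766, 43775 and 44694 CPM (counts per 1000000 counts assigned to genes) in replicates 1, 2 and 3. All 14 were detected (1 CPM or more in every library), against 77.7% of all 9822 genes listed.

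MHC class II molecules are heterodimers of an alpha and a beta chain that present peptides from endocytosed protein to CD4+ T cells. They are assembled on the invariant chain, encoded by Cd74, which blocks the peptide groove until endosomal proteases remove it. The DM heterodimer (H2-DMa with H2-DMb1 or H2-DMb2) then exchanges the last invariant chain fragment for peptide, and DO (H2-Oa with H2-Ob) restrains DM. Constitutive transcription of these genes depends on Ciita, a coactivator that does not bind DNA itself but docks on factors held at the X and Y boxes of the promoters. It is known mainly from B cells, dendritic cells and other professional antigen-presenting cells. Megakaryocytes and platelets are known mainly for class I molecules.

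Promoter motifs of this family are illustrated by the windows of H2-Aa, H2-Eb1, H2-DMb1 and H2-DMb2, taken from RefSeq for GRCm38.p6 and covering 250 bases before to 50 bases after the annotated start. Capitals mark the motifs, searched on both strands and chosen after the windows had been read: the Y box core GATTGG, the X box core AACNGATG and the X2 box core TGACGTCA. They lie at chr17:34287774-34288073 (minus strand) for H2-Aa, and on the plus strand at chr17:34305617-34305916 for H2-Eb1, chr17:34152941-34153240 for H2-DMb1 and chr17:34144999-34145298 for H2-DMb2, whose gene is a close copy of H2-DMb1.
H2-Aa: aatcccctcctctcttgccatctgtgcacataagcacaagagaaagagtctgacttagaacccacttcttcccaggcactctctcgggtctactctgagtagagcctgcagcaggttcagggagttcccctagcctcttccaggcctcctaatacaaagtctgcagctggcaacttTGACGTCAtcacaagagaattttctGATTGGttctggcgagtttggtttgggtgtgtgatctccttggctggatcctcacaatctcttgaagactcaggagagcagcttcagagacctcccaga
H2-Eb1: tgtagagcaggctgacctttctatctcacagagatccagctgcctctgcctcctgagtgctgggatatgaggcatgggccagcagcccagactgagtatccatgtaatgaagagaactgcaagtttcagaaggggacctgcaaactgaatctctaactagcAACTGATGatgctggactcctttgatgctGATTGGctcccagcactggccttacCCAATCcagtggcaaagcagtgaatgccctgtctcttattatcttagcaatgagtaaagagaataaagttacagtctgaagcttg
H2-DMb1: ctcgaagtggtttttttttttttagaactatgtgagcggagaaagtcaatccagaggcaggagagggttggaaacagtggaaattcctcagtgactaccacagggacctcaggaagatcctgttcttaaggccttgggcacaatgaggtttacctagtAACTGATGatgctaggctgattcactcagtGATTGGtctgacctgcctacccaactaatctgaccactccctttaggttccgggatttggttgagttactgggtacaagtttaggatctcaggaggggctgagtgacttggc
H2-DMb2: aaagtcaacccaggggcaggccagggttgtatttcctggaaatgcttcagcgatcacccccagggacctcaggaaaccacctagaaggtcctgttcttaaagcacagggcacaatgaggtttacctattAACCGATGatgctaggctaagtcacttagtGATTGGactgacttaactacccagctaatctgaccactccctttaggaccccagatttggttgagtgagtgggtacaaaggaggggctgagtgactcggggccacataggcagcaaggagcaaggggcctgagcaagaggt
A promoter window was held for 4 of the 7 genes (all but Cd74, H2-Ab1 and Ciita) and for 8 of 12 when the other class II chain genes were added. All 8 had a Y box core, against 16.1% of all 32851 windows. H2-DMa, which has 2 windows, had it only in that of its downstream start, at 199 bases before that start. The window of H2-DMb2 also belongs to an annotated start inside its gene, which begins at 34143229. Since the motifs were chosen after these windows had been read, the shares of all windows are given for description and test nothing. The X box core was in 4 of the 8 (H2-Eb1, H2-Eb2, H2-DMb1 and H2-DMb2), against 2.32% of all windows, and both cores together are in 0.335% of all windows. There were 21 bases between the X and Y box cores in H2-Eb1 and 22 in H2-DMb1 and H2-DMb2. H2-Aa had the X2 box core (1.79% of all windows) at 74 bases before the start and its Y box core at 49 bases before it. H2-Eb1 also had a Y box core on the opposite strand, in capitals as CCAATC. No motif overlapped another, and a match describes letters of the reference, not binding. The windows of H2-DMb1 and H2-DMb2 were identical at 208 of 247 aligned bases (84.2%).

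Invariant chain and the A and E chains made up most of the reads of the 7 genes. Cd74 (Entrez gene 16149, chromosome 18, 60803849 to 60812652 in GRCm38) had 3053, 2535 and 4365 counts in replicates 1, 2 and 3, or 113, 101 and 167 CPM. H2-Aa, the alpha chain of the A molecule (Entrez gene 14960, chromosome 17, 34282744 to 34287823), was at 77.3, 82.2 and 127 CPM. H2-Ab1, its beta chain (Entrez gene 14961, chromosome 17, 34263227 to 34269418), was at 19.7, 17.9 and 29.3 CPM. For all 3 genes replicate 3 was highest, and its exact 95% Clopper-Pearson interval (162 to 172 CPM for Cd74) did not overlap those of replicates 1 and 2. Such intervals cover counting error only, and the share of all genes with such a gap was not computed. Replicate 3 was highest for 69.1% of the 8289 genes averaging at least 1 CPM. H2-Eb1, the beta chain of the E molecule (Entrez gene 14969, chromosome 17, 34305867 to 34316674), was at 29.7, 29.3 and 45.6 CPM, again with replicate 3 alone on the high side. Together the 7 genes gave 249.8, 243 and 392 CPM, a mean of 295 ± 84.0 CPM (SD, n = 3) or 0.0295% of counts, of which Cd74 made up 43.1% ± 2.02 and H2-Aa 32.4% ± 1.42.

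H2-Ea, the alpha chain that pairs with H2-Eb1, is no member of the list but bears on it, since RefSeq annotates it as a transcribed pseudogene. The reference strain C57BL/6 carries a promoter deletion that silences it, whereas strains of the d haplotype such as BALB/c are known to express E. H2-Ea (chromosome 17, 34341952 to 34344645) had 975, 888 and 1374 counts, or 36.1, 35.3 and 52.6 CPM, so the transcript that the reference strain lacks was present in every library. By length it stood above its partner chain in all 3 libraries, at a log2 ratio of H2-Ea to H2-Eb1 of 0.75 ± 0.04 (SD, n = 3). H2-Eb2 had no entry in the tables.

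The genes of the peptide exchanger DM were at lower level, and counts of its beta chain were uneven between the gene copies H2-DMb1 and H2-DMb2. H2-DMa (Entrez gene 14998, chromosome 17, 34119693 to 34139101) had 134, 132 and 197 counts, or 4.97, 5.24 and 7.54 CPM. H2-DMb1 (Entrez gene 14999, chromosome 17, 34153191 to 34160229) had only 19, 14 and 37 counts, or 0.704, 0.556 and 1.42 CPM, with Clopper-Pearson intervals of 0.424 to 1.10, 0.304 to 0.933 and 0.998 to 1.95 CPM; the intervals of replicates 1 and 3 overlapped. It was the only one of the 7 below 1 CPM in any library. H2-DMb2 was at 4.56, 3.14 and 6.97 CPM and by length 8.53 times as high as H2-DMb1 (log2 ratio 3.09 ± 0.17). Of the distinct 50-base windows of GENCODE M21 transcripts, 22.7% of those of H2-DMb1 and 25.9% of those of H2-DMb2 also occur in another gene's transcripts, for H2-DMb1 in H2-DMb2 alone, so the split of beta chain reads between these copies is uncertain. Together H2-DMb1 and H2-DMb2 gave 5.26, 3.69 and 8.39 CPM, against 4.97, 5.24 and 7.54 CPM for H2-DMa. For H2-DMa, whose annotated span overlaps that of Brd2, the shared portion was 8.43%. The library chemistry named in the labels does not mark strand, and reads from overlapping genes cannot then be told apart. The chains of DO were also low, H2-Oa at 1.78, 2.74 and 4.17 CPM and H2-Ob at 2.93, 3.45 and 4.56 CPM.

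**Figure D1:**
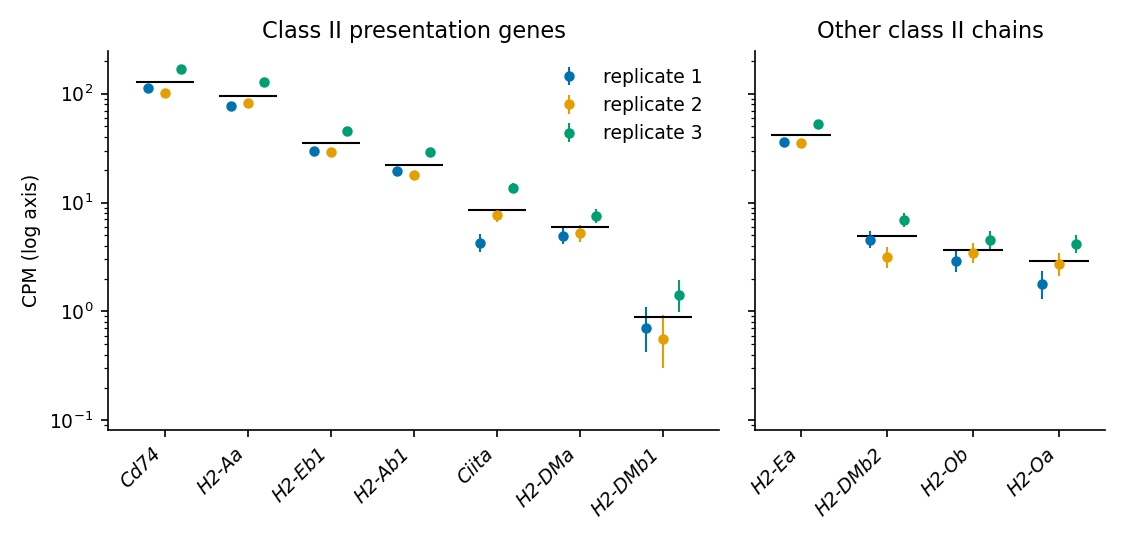
CPM on a log axis for the 7 class II presentation genes and 4 other class II chain genes, ordered by mean. Points are libraries coloured by replicate with 95% Clopper-Pearson intervals, and black lines are means of 3 libraries; replicate 3 is the highest point for every gene drawn, and Ciita is the gene of the left panel with the widest gap between replicates 1 and 3.

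Ciita spread more between libraries than the other members. It had 115, 192 and 356 counts (Entrez gene 12265, chromosome 16, 10480014 to 10531064), or 4.26, 7.62 and 13.6 CPM in replicates 1, 2 and 3, a 3.20-fold range, whereas Cd74, H2-Aa, H2-Ab1, H2-Eb1 and H2-DMa had ranges of 1.66-, 1.65-, 1.64-, 1.56- and 1.52-fold and H2-DMb1, at far fewer counts, one of 2.55-fold. Its intervals, 3.52 to 5.12, 6.58 to 8.78 and 12.3 to 15.1 CPM, were disjoint. How many of all genes have disjoint intervals was not computed. The log2 ratio of Ciita to Cd74, both scaled to length, was -6.71, -5.72 and -5.62, so that replicate 1 alone was lower by about 1 log2 unit. Ciita overlaps Dexi at 1 end, and 1.46% of its 50-base windows are shared with it. Of the factors that occupy the class II promoter, the 3 subunits of the X box factor RFX were scarce, with Rfx5 at 0.630, 0.834 and 1.76 CPM, Rfxap at 1.04, 0.754 and 1.23 CPM and Rfxank at 0.816, 1.11 and 1.76 CPM, none reaching 1 CPM in all 3 libraries. The Y box factor NF-Y, which acts at many other promoters, was higher, with Nfyb at 21.1 ± 2.14 CPM, Nfya at 14.4 ± 0.296 CPM and Nfyc at 8.42 ± 1.47 CPM (SD, n = 3), and Creb1, known to act at X2 boxes, was at 5.59 ± 0.533 CPM. By length, Ciita stood above Rfx5 at a log2 ratio of 2.42 ± 0.23.

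Scaled to the deposited gene length (RPKM, CPM per 1000 bases), the members fell into clear steps. Cd74 at 89.7 ± 24.98 RPKM and H2-Aa at 89.4 ± 25.8 RPKM (SD, n = 3) ranked 521 and 522 of 9822 genes and did not differ beyond their spread (log2 ratio 0.01 ± 0.13, with the sign varying between libraries). H2-Eb1 (20.9 ± 5.57 RPKM) and H2-Ab1 (18.7 ± 5.13 RPKM) followed. H2-Ab1 was lower than H2-Eb1 in each library, but only by 0.16 ± 0.06 on the log2 scale. Next came H2-DMa at 7.58 ± 1.81 RPKM, Ciita at 1.49 ± 0.834 RPKM and H2-DMb1 at 0.695 ± 0.359 RPKM. Every other step in this order had the same sign in all 3 libraries, down to that of Ciita over H2-DMb1 (0.94 ± 0.57). The median member was at 18.7 RPKM, against 1.49 RPKM for all genes of the tables, and 6 of 7 members reached 1 CPM in every library, against 77.7% of all genes.

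**Figure D2:**
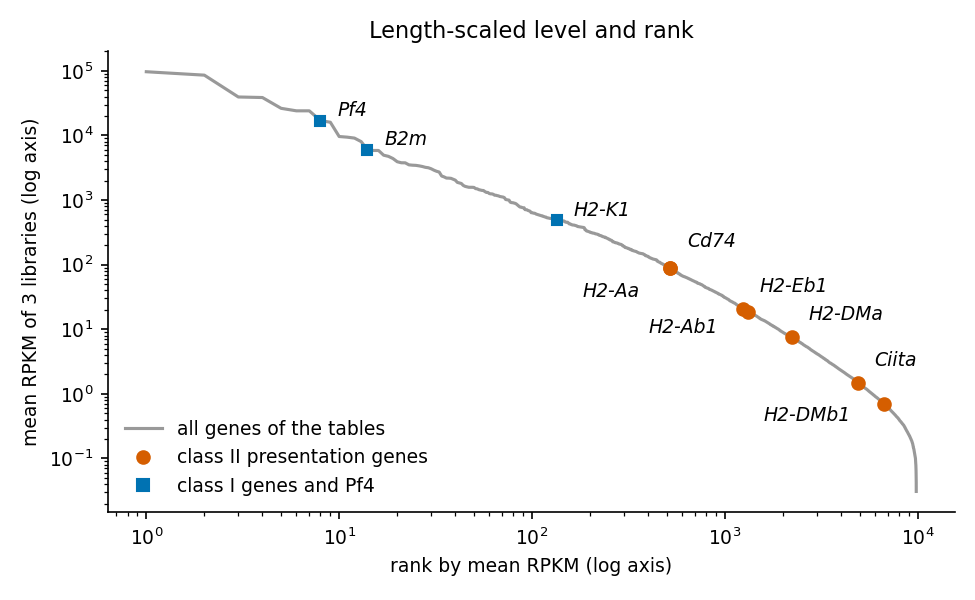
Mean RPKM of 3 libraries against rank, both on log axes, for all 9822 genes (grey line), with the 7 class II presentation genes (circles) and the class I genes B2m and H2-K1 and the platelet chemokine gene Pf4 (squares). Cd74 and H2-Aa lie on one another at ranks 521 and 522, and H2-DMb1 is lowest at 0.695 RPKM.

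The A and E chains, Cd74 and H2-DMa kept nearly the same proportions in each library. The alpha and beta chains of A were unequal by length, H2-Aa giving 4.77 times the level of H2-Ab1 at log2 ratios of 2.13, 2.36 and 2.28 in replicates 1, 2 and 3. Reads of BALB/c were counted against the C57BL/6 genome, which carries other alleles of these chains, and how many reads each allele lost was not tested. Cd74 to H2-Ab1 had the narrowest spread of the 24 ratios that could be computed, 2.26 ± 0.02 (SD, n = 3), and H2-DMa to H2-Aa was -3.53 ± 0.07. Against class I the ratio moved: Cd74 to B2m, the class I light chain, was -6.22, -6.45 and -5.66, and H2-Aa to H2-K1, a class I heavy chain, was -2.77, -2.76 and -1.98, with replicate 3 nearest to 0 for both. Cd74 lay 194 times below Pf4 by length (log2 ratio -7.60 ± 0.42). Against Lyz2, the lysozyme gene of myeloid cells, Cd74 was at -3.90 ± 0.44. The ratios to B cell genes differed in their spread. H2-Aa to Cd79a, which encodes a subunit of the B cell receptor, was at 2.99, 2.99 and 2.85, and Cd74 to Cd79a at 2.95 ± 0.16. Cd74 to Ms4a1, the gene for the B cell antigen CD20, was at 4.51 ± 0.09. Cd74 to Cd79b, the gene of the other receptor subunit, was at 3.94, 3.20 and 3.05, with a spread (SD 0.47) above that of Cd74 to B2m (SD 0.41). In all, 23 of the 24 ratios had 1 sign in every library; no test is given, since exact sign flips of 3 values (two-sided) reach p = 0.25 at best.

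**Figure D3:**
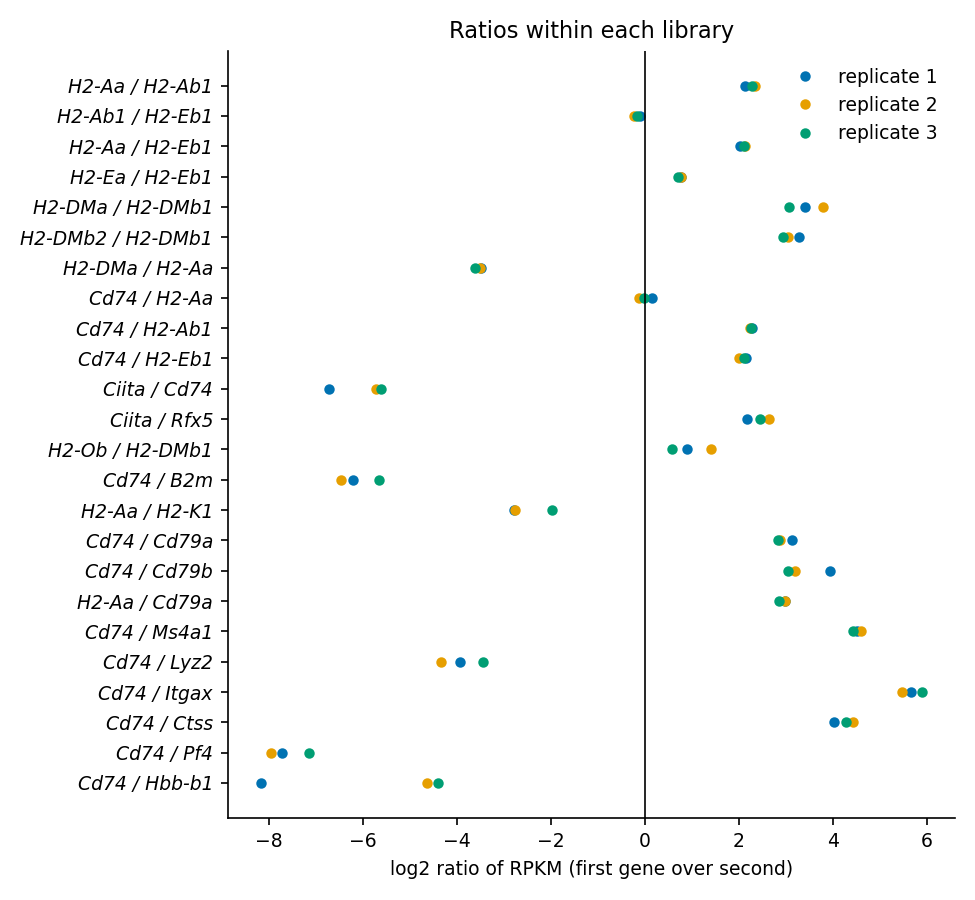
Log2 ratio of RPKM within each library, first gene over the other, for the 24 gene pairs, with 1 point per replicate. Cd74 to H2-Ab1 is the tightest cluster (2.26 ± 0.02) and Cd74 to the globin gene Hbb-b1 the widest (-5.73 ± 2.12); the class II pairs H2-DMa to H2-DMb1 (3.42 ± 0.36) and H2-Ob to H2-DMb1 (0.96 ± 0.43) are spread much like Cd74 to B2m (-6.11 ± 0.41).

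Replicate 3 was the highest library for all 7 members by CPM, but so it was for 69.1% of the 8289 genes averaging at least 1 CPM (6 of the 7 members passed that filter; H2-DMb1, at 0.892 CPM, did not). Over those genes replicate 3 exceeded the mean of replicates 1 and 2 by a median of 0.24 on the log2 scale, and TMM scaling, edgeR's correction for library composition, brought this shift to 0.02. The members exceeded it by a median of 0.65 on plain totals and by 0.43 with TMM, under which replicate 3 was still highest for all 7, against 42.1% of genes. The least shifted member on plain totals was H2-DMa at 0.56 and the most shifted were H2-DMb1 at 1.09 and Ciita at 1.25, which 0.676% of the 8289 genes surpassed. By a threshold set after the values were seen, replicate 3 was at least 1.5 times both other libraries for 4 members, against 15.3% of genes, and with TMM for 2 members (Ciita and H2-DMb1), against 6.39% of genes. The summed level in its highest library was 1.61 times that in its lowest, 1.39 times with TMM, and 1.03 times without replicate 3.

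None of the 6 members tested was called in the test of spread, which set each gene's quasi-likelihood dispersion in edgeR against the trend over all genes, with Benjamini-Hochberg adjustment over 8289 genes; 0.265% of genes (22) were called. Ciita came nearest, at an unadjusted p of 0.00104 in edgeR that ranked 33 of 8289 and an adjusted p of 0.260. Over the edgeR alternatives its adjusted p was lowest at 0.0282, without replicate 2, and highest at 0.996, with a robust prior. DESeq2 called its dispersion an outlier. Thus 1 member was called without replicate 2, where 24 of 8406 genes were, and 1 by DESeq2, where 49 of 8289 genes were. H2-Aa was the other member with an unadjusted value under 0.05 in edgeR, at 0.0487, against 391 of all 8289 genes. Cd74 (0.0530), H2-Ab1 (0.101), H2-Eb1 (0.109) and H2-DMa (0.442) had larger unadjusted p-values in edgeR.

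**Figure D4:**
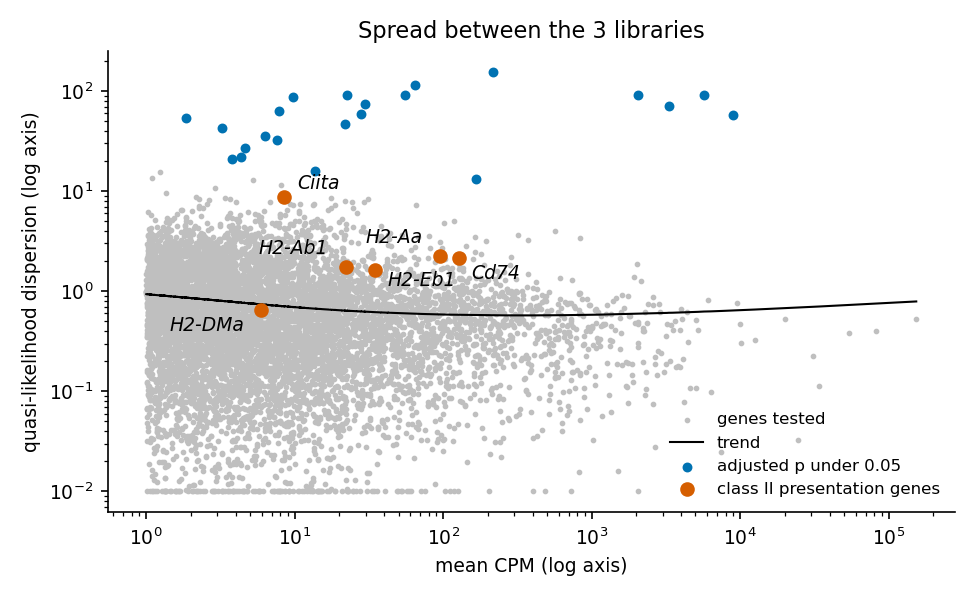
Quasi-likelihood dispersion of each gene in edgeR against mean CPM, both on log axes, for 8289 genes (grey), with the trend (line), the 22 genes at an adjusted p under 0.05 (blue) and the 6 members tested (orange); values under 0.01 are drawn at 0.01. Ciita lies highest of the members but below all 22 called genes, and H2-DMa lies just under the trend.

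B cell genes, like the class II genes, were highest in replicate 3. All 20 listed B cell markers were detected, against 77.7% of all genes. All 20 were highest in replicate 3, against 69.1% of the 8289 genes averaging at least 1 CPM. So were 11 of the 12 T cell markers present. The B cell markers summed to 266, 274 and 487 CPM in replicates 1, 2 and 3, so the members' sum was 0.939, 0.888 and 0.804 times the B cell sum. The B cell receptor subunit genes Cd79a (12.01, 12.8 and 21.9 CPM) and Cd79b (6.19, 9.17 and 17.0 CPM) and the antigen gene Ms4a1 (7.12, 5.95 and 11.3 CPM) were present in each library, and the immunoglobulin gene Ighm led the list at 79.9 ± 27.5 CPM (SD, n = 3), ahead of Cd37, a tetraspanin gene, at 38.0 ± 6.01 CPM and Igkc, the kappa light chain constant gene, at 32.7 ± 9.84 CPM. On the log2 scale the B cell genes exceeded the mean of replicates 1 and 2 in replicate 3 by a median of 0.90, or 0.69 with TMM. In bulk RNA, fewer cells of a type and less RNA per cell cannot be told apart. The part of B cells in the class II reads was not tested.

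Other leukocyte markers gave a mixed picture. Of the dendritic cell list 10 of 14 genes were in the tables and 7 were detected, against 77.7% of all genes. Of its defining markers, Itgax was at 6.85 ± 0.937 CPM (SD, n = 3), while Zbtb46 and Flt3 had no entry in the tables. The list summed to 118, 115 and 136 CPM, most of it from Xcr1 (51.7 ± 4.03 CPM) and Clec9a (38.0 ± 1.16 CPM), which varied little. Without them, a choice made after their values were seen, the sum was 29.6, 27.5 and 42.1 CPM, led by Irf8 (11.8 ± 4.68 CPM), which B cells are also known to express. Monocyte and macrophage markers summed to 1339, 1570 and 1421 CPM, highest in replicate 2, and Lyz2 made up most of this. Among their defining markers Csf1r was at 1.67, 1.35 and 1.11 CPM and Adgre1 at 0.445, 0.516 and 0.689 CPM, and Cd14 had no entry. Without Lyz2, likewise a choice made afterwards, the sum was 52.7, 54.7 and 60.0 CPM, and it was led by Fcgr1 (33.9 ± 3.20 CPM) and the perforin-like gene Mpeg1 (7.71 ± 1.92 CPM). T cell markers summed to 182, 202 and 201 CPM, mostly from Lat (149 ± 12.3 CPM), an adaptor that platelets also use. Without Lat, again a later choice, they gave 38.5, 38.9 and 59.9 CPM, with Tcf7 at 15.98 ± 3.595 CPM and Lck at 12.2 ± 4.01 CPM. The defining genes Cd3d (0.964, 1.59 and 1.84 CPM) and Cd3g (0.890, 0.357 and 1.34 CPM) were low and Cd3e had no entry. Over the 3 libraries the members' sum relative to the T cell list without Lat ranged 1.05-fold. The range was 1.10-fold for the dendritic cell list without Xcr1 and Clec9a and 1.17-fold for the B cell list. With the full lists it was 1.62-fold for T cells and 1.37-fold for dendritic cells. It was 1.47-fold for the monocyte and macrophage list without Lyz2 and 1.78-fold with it. Since the B cell list was not trimmed, these ranges do not rank the cell types.

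The remaining lists completed the comparison. Natural killer cell markers summed to 7.19, 8.50 and 9.04 CPM, with Nkg7 at 4.02 ± 0.394 CPM (SD, n = 3), Eomes at 1.45 ± 0.164 CPM and Ncr1 at 1.17 ± 0.399 CPM. Of the 7 listed 5 had an entry, without the defining gene Klrb1c and Prf1, and 2 were detected, against 77.7% of all genes. Neutrophil markers summed to 12.2, 17.7 and 21.3 CPM, with S100a9 at 8.68 ± 3.10 CPM, S100a8 at 3.94 ± 1.54 CPM and Retnlg at 2.85 ± 0.342 CPM. Of the 9 listed 4 had an entry and all 4 were detected, while Ly6g, Cxcr2, Mmp9, Ngp and Camp had none. Red cell markers were highest in replicate 1, at 48712, 5217 and 6803 CPM, and endothelial markers, at 838, 887 and 888 CPM, hardly varied. Of 15 class I presentation genes 14 were in the tables and 11 were detected, against 77.7% of all genes. Their sum of 6892, 7208 and 6847 CPM was highest in replicate 2. It came mostly from B2m (5192 ± 136 CPM), H2-D1 (865 ± 37.8 CPM) and H2-K1 (816 ± 43.1 CPM), each highest in replicate 2. Replicate 3 was highest for 7 of the 14, against 69.1% of the 8289 genes averaging at least 1 CPM. The summed class II members thus stood at 0.00598, 0.00556 and 0.00877 times the platelet marker sum, and at 6.49, 6.25 and 6.54 times that of the T cell list without Lat. In the edgeR test of spread 6 of 8 red cell genes were called, and no gene of any other list; at an unadjusted p under 0.05, reached by 391 of all 8289 genes (4.72%), there were 13 of 20 B cell, 7 of 8 red cell, 2 of 4 neutrophil and 2 of 8 dendritic cell genes, 1 of 14 class I genes and 1 of 4 other class II chain genes.

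**Figure D5:**
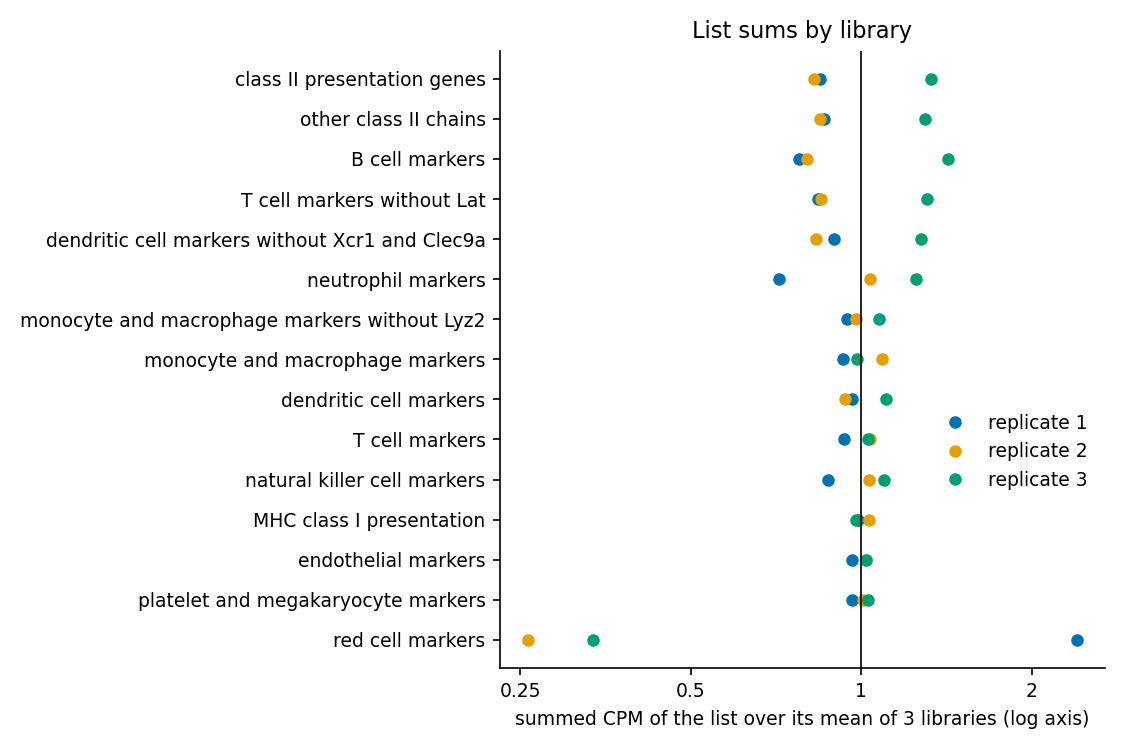
Summed CPM of each gene list in each library, divided by the list's mean over 3 libraries, on a log axis, with 1 point per replicate. The class II presentation genes are at 0.847, 0.825 and 1.33 of their mean in replicates 1, 2 and 3. The B cell markers (0.777, 0.801 and 1.42) are also highest in replicate 3. So are T cell markers without Lat (0.840, 0.851 and 1.31) and dendritic cell markers without Xcr1 and Clec9a (0.895, 0.832 and 1.27). Class I, endothelial and platelet lists lie near 1, and red cell markers are highest in replicate 1.

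Genes for other steps of the class II pathway were mixed. Of 10 genes for endosomal proteases and the thiol reductase, 9 were detected, against 77.7% of all genes. Replicate 3 was highest for 6, against 69.1% of the 8289 genes averaging at least 1 CPM. For the list it exceeded the mean of replicates 1 and 2 by a median of 0.16 on the log2 scale, against 0.24 for those 8289 genes. The aspartic protease gene Ctsd, at 2970, 3063 and 3163 CPM, and the cysteine protease gene Ctsz, at 691 ± 35.1 CPM (SD, n = 3), were far above the class II chains and nearly level across libraries, as was Lgmn, for asparaginyl endopeptidase, at 60.0 ± 2.77 CPM. Ctss, the protease best known for trimming the invariant chain in antigen-presenting cells, was at 6.56, 4.37 and 8.12 CPM. It was highest in replicate 3 like the chains and like most genes, and by length 19.1 times below Cd74. Ifi30, the thiol reductase gene, was at 6.49, 5.20 and 8.46 CPM, also highest in replicate 3 and named after its values were seen. The ubiquitin ligase genes for class II turnover diverged, Marchf8, which is broadly expressed, at 300.0, 259.9 and 298 CPM and Marchf1, the one known from B cells and dendritic cells, at 1.74, 1.75 and 3.75 CPM, highest in replicate 3.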

How the data were processed

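A Norgen kit gave the RNA, which was sequenced as Illumina TruSeq RNA version 2 libraries, per the labels' protocols. Each deposited table lists, for 1 library, the raw counts of the same 9822 Entrez genes beside their lengths. Every listed gene reached at least 0.238 CPM in its highest library, and how genes were selected for listing was not found. A gene without an entry may therefore have had few reads rather than none, and shares of all genes refer to the listed genes only. The submitters' processing notes name CASAVA 1.8.2, Subread, featureCounts and edgeR 3.11.5 and build mm10, without settings. The annotation, strand setting and handling of multiply placed reads were not found in these sources. BALB/c reads of these polymorphic genes can be lost on a C57BL/6 genome.

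The members, gene lists, pairs and tests were chosen with earlier results of these data known. Named genes were the 7 members, pair genes, other class II chains, promoter factors, the defining (first 3) markers and the 3 highest genes of each list, and the 10 genes nearest in profile, of which 1 is not reported here; not all others are described. Symbols came from RefSeq for GRCm38.p6, the assembly of mm10, which named 9636 genes; 140 of 165 listed symbols were in the tables. A count of 0 would allow 0.111 to 0.119 CPM (3 counts). Intervals are exact Clopper-Pearson at 95%.

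CPM used plain totals and RPKM the deposited lengths; ratios added a prior count of 2. edgeR 4.0.16 (R 4.3.3, limma 3.58.1) fitted an intercept with TMM scaling to genes averaging at least 1 CPM. Each gene's quasi-likelihood dispersion (2 residual degrees of freedom) was compared with the fitted trend by a one-sided F test. That step was tested on simulated data that gave all genes the same dispersion. Its power for ranges as small as those of the members is not reported. DESeq2 1.42.0 served as an alternative, beside other scalings, filters, prior counts and leaving out each replicate. Other steps used Python 3.11.15, NumPy 2.4.6, pandas 2.3.3, SciPy 1.17.1 and matplotlib 3.10.9. No batch term could be fitted.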

Additional observations from a re-analysis of the deposited data

How the results depend on the processing

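The summed level of the 7 genes, 295 CPM, stayed within 1 SD under TMM, DESeq2 size factors, totals without red cell genes (added after seeing the data) and each replicate left out (247 to 321 CPM), and was 519 CPM on totals without the 10 highest genes, where the total itself is smaller. The ratio of the highest to the lowest library, 1.61, was 1.39 with TMM and 1.34 with DESeq2 size factors, and 1.03 to 1.61 with each replicate left out. The number of members detected, 6, ran from 4 at a minimum of 5 CPM to 7 at 0.5 CPM. Of all genes, 40.7% passed at 5 CPM and 93.0% at 0.5 CPM. The genes called for spread, 22, became 11 on plain totals, 0 with a robust prior (422 at an unadjusted p under 0.05), 49 by DESeq2's dispersion outliers and 2 to 29 with each replicate left out; the cause was not tested. Members called were 0 in edgeR, 0 to 1 with each replicate left out and 1 by DESeq2, each time Ciita. The 23 ratios of 1 sign became 24 without gene length. Of the 24 ratios 19 moved by more than 1 SD without gene length. Cd74 to H2-Aa, whose sign already varied between libraries at a mean of 0.01, was -0.06 without replicate 1, and the other 23 kept their sign under the alternatives run. Leaving out a replicate could not have changed a sign that all 3 libraries share. Depth limits H2-DMb1 most, with 14 to 37 counts. No paired analysis was possible because there is 1 group.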

Other observations

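Costimulatory genes of antigen-presenting cells were mostly at the limit of these tables. Cd40 was at 0.630, 0.715 and 1.11 CPM in replicates 1, 2 and 3 and Icosl at 0.593, 0.913 and 1.57 CPM, while Cd80 and Cd86 had no entry in the tables. Cd274, which encodes the inhibitory ligand PD-L1, stood apart at 57.6, 63.1 and 54.1 CPM, lowest in the library where the class II genes were highest. Within the class I list the immunoproteasome gene Psmb8 was at 10.3, 11.2 and 19.2 CPM, highest in replicate 3, whereas B2m was at 5105, 5349 and 5122 CPM, highest in replicate 2. That choice of class I genes was made after their values were seen.

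Among 4351 genes averaging at least 5 CPM, those whose centred log2 CPM profile over the 3 libraries lay nearest to that of the summed members, by Euclidean distance, included Tbc1d10c, Hif1a, Limd1, Zfp638, Eif3l, Ddx21, Psmc2, Zmiz2 and Zfp740, at distances of 0.0106 to 0.0302. H2-Eb1 was at 0.0359, Cd74 at 0.0950 and Ciita at 0.773, farther than 98.1% of those genes. Of the 4351 genes, 0.345% lay nearer than H2-Eb1 and 2.80% nearer than Cd74. In all, 137 lay within 0.1, members among them, and the median distance was 0.456. The members make up the sum, so their own nearness tests nothing, and what a like profile over 3 libraries means was not tested.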
